A study of Arabidopsis thaliana with 4 samples.

Results

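This account describes transcripts whose array signal was low in the Arabidopsis thaliana accession Wassilewskija (Ws) in both genotypes measured. Above-ground tissue of 4 kinds of plant was compared with 1 Affymetrix array each: fnr1 mutant Ws, wild type Ws, fnr1 mutant Columbia and wild type Columbia. The plants were 31 days old and were taken 4 h into the light period, having grown on soil in short days, and the labels do not say how many plants went into an array. FNR1 encodes a leaf ferredoxin-NADP+ oxidoreductase, and the fnr1 plants of each accession carry a mutation in it whose allele is not given in the labels used here. Each signal was scaled so that all 4 arrays had the same median. Members were chosen by these signals: a probe set was taken where both Columbia signals were 50 or more and the higher Ws signal lay more than 2-fold under the lower Columbia signal. Of 22746 non-control probe sets, 188 met these criteria, or 0.827%. ECS1, AT1G66100, AT3G22240, ZW9, AT1G65370 and AT5G03350 met them and were left out, which gave 182 members.

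Columbia and Ws are natural accessions, inbred lines collected from different wild populations. Accessions differ by single bases, by small insertions and deletions and by whole genes, and genes for immune receptors and transposons are known as the most variable classes. The array's oligonucleotide probes come from the Columbia sequence. A low Ws signal can therefore reflect less transcript or poorer binding of Ws RNA to the probes, and these cannot be told apart here. In a tissue sample, fewer cells of a type and less RNA per cell cannot be told apart either. Each accession and genotype was represented by 1 array, so values within 1 accession and genotype have no replicate error. The criteria used the Ws to Columbia difference of all 4 arrays, so that difference is described below and not tested.

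The members were low in Ws by very different amounts. The fold between the geometric means of the 2 Ws and the 2 Columbia signals had a median of 3.50 over the 182 members, and 99 had a ratio of the lower Columbia to the higher Ws signal of at most 3. This ratio was above 4 for 54 members and above 10 for 20. Signals under 5.78, the 25th percentile of all scaled signals, were treated as having no measured level. At least 1 Ws signal of 17 members, and both Ws signals of 8, lay under this floor, and folds given as "at least" set such signals to it. The median member signal was 35.4 in fnr1 Ws and 35.0 in wild type Ws, against 149 in fnr1 Columbia and 136 in wild type Columbia. Columbia signals of at least 1000 on both arrays were seen for 11 members, and 73 had a lower Columbia signal under 100.

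**Figure D1:**
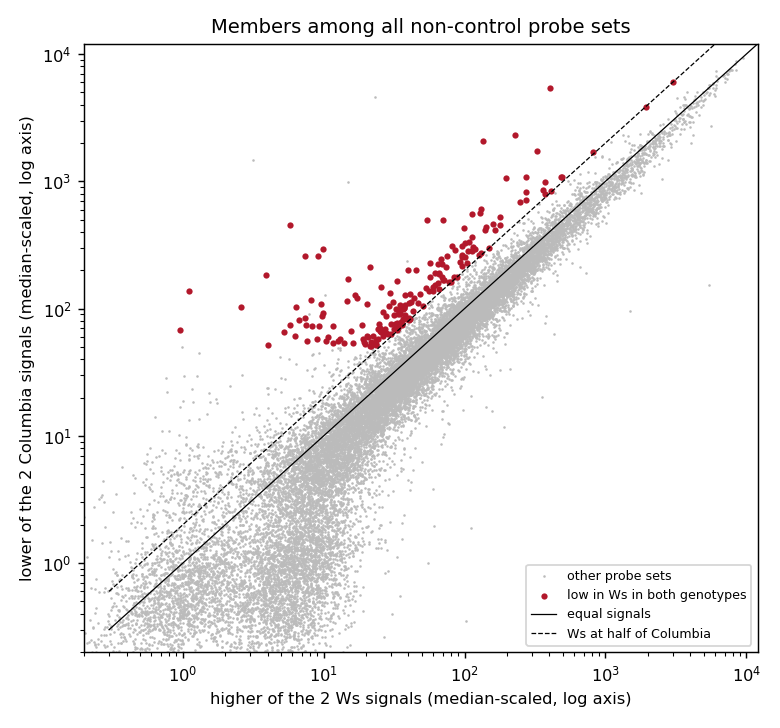
Higher of the 2 Ws signals (x axis) against the lower of the 2 Columbia signals (y axis) for all 22746 non-control probe sets, as median-scaled signals on log axes. Red points are the 182 members, which lie above the dashed line of a 2-fold lower Ws signal and at or above a Columbia signal of 50, and grey points are all other probe sets, the 6 excluded ones included.

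The size of the gap was close in both genotypes for most members, but the criteria asked for a gap of more than 2-fold in both pairs. Agreement between the pairs was thus partly set by the choice of members and is only described. Among the 165 members with both Ws signals above the floor, the log2 Ws minus Columbia difference of the fnr1 pair and that of the wild type pair had a median absolute difference of 0.29. They were within 1.5-fold of each other for 135 of these members and more than 2-fold apart for 6. The mirrored criteria, with Ws and Columbia exchanged, were met by 44 probe sets, or 0.193% of all. These criteria also use the values of all 4 arrays, and the numbers are given without a test.

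Of the 182 members, 90 had 1 gene in the probe annotation, 16 had several and 76 were not listed there. Genes are named for the 90 only, and the others are given by their probe set. Immune receptors and related kinases made up 11 of the 90, with a median fold of 10.2. Roles were assigned to members only, after they were seen. No share over all probe sets therefore stands beside this or the other role counts, and they do not show whether a role is frequent among members. Plant resistance proteins of the TIR-NBS-LRR class are intracellular receptors that recognise pathogen effectors and set off a defence response. The fold was at least 21.8 for AT3G44630, a gene of this class, with signals of 0.71 and 6.39 in fnr1 and wild type Ws, against 169 and 104 in fnr1 and wild type Columbia. AT4G19500, also a TIR-NBS-LRR gene, had 1.63 and 7.52 in fnr1 and wild type Ws, against 73.8 and 91.6 in fnr1 and wild type Columbia and was at least 12.5-fold lower in Ws. In CSA1, a TIR-NBS-LRR gene first described for its effect on shade avoidance, the signals were 0.62 and 8.28 in fnr1 and wild type Ws, against 79.7 and 72.7 in fnr1 and wild type Columbia.

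AT1G63880 is another TIR-NBS-LRR gene. Its signals were 7.84 and 9.92 in fnr1 and wild type Ws, against 122 and 91.8 in fnr1 and wild type Columbia, and all 4 lay above the floor. The 2 remaining members of the class differed less between accessions. AT4G19530 had 85.5 and 70.9 in fnr1 and wild type Ws, against 288 and 302 in fnr1 and wild type Columbia, and AT3G04210, a shorter TIR-NBS gene, had 65.6 and 45.3 in fnr1 and wild type Ws, against 201 and 144 in fnr1 and wild type Columbia. Their Ws signals were well above the floor and their folds were 3.79 and 3.12.

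The other 5 of the 11 encode a leucine-rich repeat protein and membrane or cytoplasmic kinases. AT3G43740, the leucine-rich repeat protein, had 3.18 and 7.41 in fnr1 and wild type Ws, against 129 and 84.4 in fnr1 and wild type Columbia. AT1G11280, an S-locus lectin receptor kinase, had 14.7 and 10.7 in fnr1 and wild type Ws, against 115 and 143 in fnr1 and wild type Columbia. AT1G35710, a leucine-rich repeat receptor kinase, had 10.3 and 11.6 in fnr1 and wild type Ws, against 173 and 72.6 in fnr1 and wild type Columbia. Its Ws signals were close to each other, and of the Columbia arrays fnr1 was the higher one. AT1G16260, of the wall-associated kinase family, and AT1G56720, a protein kinase, had smaller folds of 3.61 and 3.18.

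The transposon-related loci annotated as pseudogenes among the members were AT1G35612, AT3G15310 and AT4G16870. AT1G35612 had 5.24 and 0.71 in fnr1 and wild type Ws, against 65.9 and 67.3 in fnr1 and wild type Columbia. AT3G15310 had 9.21 and 3.47 in fnr1 and wild type Ws, against 73.1 and 118 in fnr1 and wild type Columbia. AT4G16870 had 3.66 and 7.61 in fnr1 and wild type Ws, against 55.2 and 81.6 in fnr1 and wild type Columbia. Each had at least 1 Ws signal under the floor, and the folds were at least 11.5, 12.7 and 10.1. Among the 3990 probe sets with 1 gene and both Columbia signals at 50 or more, 4 were annotated as pseudogenes, so 3 of these 4 were members. The fourth, AT4G08220, had 73.1 and 56.3 in fnr1 and wild type Ws, against 64.3 and 53.6 in fnr1 and wild type Columbia, and its groups overlapped.

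AT4G16870 lies next to AT4G16880, one of the resistance genes of a cluster on chromosome 4. AT4G16880 missed membership because its lower Columbia signal was under 50. Its signals were 0.98 and 0.86 in fnr1 and wild type Ws, against 51.7 and 49.7 in fnr1 and wild type Columbia. Of a list of 19 resistance genes, 5 had a listed probe set, and AT3G44630 was the only one of these that was a member. AT4G16900, AT4G16920 and AT3G44400 had signals of at most 13.6 on all 4 arrays.

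**Figure D2:**
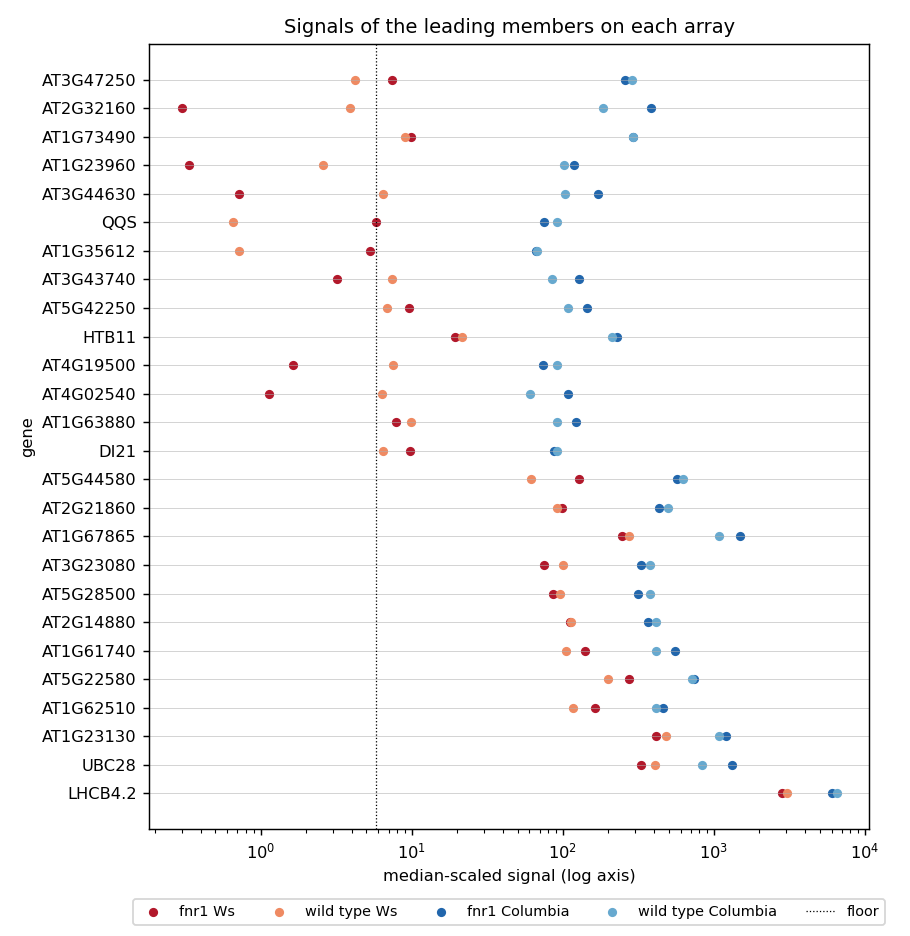
Median-scaled signals (x axis, log scale) of the 14 members with 1 gene and the highest ratio of Columbia to Ws signal and of the 12 with the highest lower Columbia signal, 1 row per gene. Points are single arrays, coloured by accession and genotype, and the dotted line is the floor of 5.78. In the upper 14 rows Ws signals lie under the floor or within 2-fold above it, except for HTB11 at 19.2 and 21.4, and in the lower rows all 4 signals are well above it.

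Wide gaps outside the receptors were found in genes of several kinds. AT2G32160 encodes a methyltransferase family protein. Its signals were 0.30 and 3.88 in fnr1 and wild type Ws, against 383 and 183 in fnr1 and wild type Columbia, and it was at least 45.8-fold lower in Ws. AT3G47250, of a family of plant proteins of unknown function, had 7.35 and 4.21 in fnr1 and wild type Ws, against 258 and 287 in fnr1 and wild type Columbia and was at least 41.8-fold lower. AT1G73490, an RNA-binding protein gene, had 9.82 and 9.02 in fnr1 and wild type Ws, against 292 and 293 in fnr1 and wild type Columbia. Both of its Ws signals lay above the floor, though near it, and the fold was 31.0. AT1G23960 had 0.34 and 2.60 in fnr1 and wild type Ws, against 119 and 102 in fnr1 and wild type Columbia and was at least 19.1-fold lower.

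AT4G02540, a gene of the cysteine and histidine-rich C1 domain family, had 1.14 and 6.29 in fnr1 and wild type Ws, against 109 and 60.6 in fnr1 and wild type Columbia. AT5G42250, a zinc-binding alcohol dehydrogenase gene, had 9.57 and 6.83 in fnr1 and wild type Ws, against 143 and 109 in fnr1 and wild type Columbia. QQS, a short gene without known relatives in other species that affects leaf starch, had 5.74 and 0.66 in fnr1 and wild type Ws, against 74.8 and 90.9 in fnr1 and wild type Columbia. Both Ws signals of QQS lay under the floor, and the fold was at least 14.3. DI21, a gene named for its induction by drought, had 9.76 and 6.47 in fnr1 and wild type Ws, against 87.6 and 92.0 in fnr1 and wild type Columbia.

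HTB11 encodes a histone H2B, a core protein of the nucleosome. Its signals were 19.2 and 21.4 in fnr1 and wild type Ws, against 228 and 213 in fnr1 and wild type Columbia, and it was 10.9-fold lower in Ws. The other histone H2B genes with a listed probe set had smaller gaps or none. HTB4 had 529 and 557 in fnr1 and wild type Ws, against 515 and 502 in fnr1 and wild type Columbia. HTB1 was higher in Ws, with 342 and 303 in fnr1 and wild type Ws against 174 and 183 in fnr1 and wild type Columbia. HTB2 was lower in Ws but lay just outside the criteria, with 89.6 and 88.7 in fnr1 and wild type Ws against 178 and 233 in fnr1 and wild type Columbia.

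Other members with roles in transcription or RNA included AT1G12400, a subunit of the general transcription and DNA repair factor TFIIH, with 10.3 and 8.54 in fnr1 and wild type Ws, against 73.3 and 55.3 in fnr1 and wild type Columbia. AT2G14880, a SWIB domain protein gene, had 111 and 114 in fnr1 and wild type Ws, against 364 and 413 in fnr1 and wild type Columbia. AT5G61590 (DEWAX) encodes an ERF family transcription factor that represses wax synthesis in stems and leaves. Its signals were 68.3 and 93.3 in fnr1 and wild type Ws, against 238 and 230.4 in fnr1 and wild type Columbia. The AT4G20330 gene, for a subunit of the general factor TFIIE, had the smallest fold of the 9 members of this kind, at 2.39.

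Chloroplast and photosynthesis genes made up 4 of the 90. LHCB4.2, a minor antenna protein of photosystem II, lay just inside the criteria. Its signals were 2822 and 3022 in fnr1 and wild type Ws, against 6051 and 6478 in fnr1 and wild type Columbia. The related LHCB4.1 had 6276 and 6336 in fnr1 and wild type Ws, against 6501 and 6860 in fnr1 and wild type Columbia. LHCB4.3 was 2.08-fold lower in Ws but was not a member, with 256 and 295 in fnr1 and wild type Ws against 660 and 492 in fnr1 and wild type Columbia. AT5G28500, a factor in the assembly of Rubisco, had 86.0 and 95.5 in fnr1 and wild type Ws, against 312 and 379 in fnr1 and wild type Columbia. AT2G21860, related to violaxanthin de-epoxidase, had 99.0 and 91.5 in fnr1 and wild type Ws, against 432 and 496 in fnr1 and wild type Columbia. None of the 64 plastid probe sets with both Columbia signals at 50 or more was a member.

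The 16 enzymes of metabolism had a median fold of 3.83. CYP71B26, a cytochrome P450, had 29.9 and 33.3 in fnr1 and wild type Ws, against 208 and 164 in fnr1 and wild type Columbia. Of 10 other measured CYP71B genes, CYP71B24 also had a wide gap, with 6.32 and 5.08 in fnr1 and wild type Ws against 39.4 and 36.6 in fnr1 and wild type Columbia. Its Columbia signals were under 50. The median log2 Ws minus Columbia difference of the 10 was -0.09. BGLU47, a beta-glucosidase, had 12.03 and 13.95 in fnr1 and wild type Ws, against 53.4 and 79.2 in fnr1 and wild type Columbia, and 7 other measured BGLU genes had a median log2 Ws minus Columbia difference of -0.13.

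2A6 and AT1G06640 belong to the family of 2-oxoglutarate and iron-dependent oxygenases. 2A6 had 32 and 41.2 in fnr1 and wild type Ws, against 156 and 131 in fnr1 and wild type Columbia. A further probe set of 2A6 had 10.8 and 13.9 in fnr1 and wild type Ws against 26.8 and 20.2 in fnr1 and wild type Columbia. Its Columbia signals were under 50, so it could not be a member, and its gap was not tested. AT1G06640 had 61.5 and 53.6 in fnr1 and wild type Ws, against 212 and 191 in fnr1 and wild type Columbia. APS4, an ATP sulfurylase of sulfate assimilation, had 64.4 and 56.5 in fnr1 and wild type Ws, against 195 and 158 in fnr1 and wild type Columbia, while APS3 had 90.6 and 149 in fnr1 and wild type Ws against 144 and 108 in fnr1 and wild type Columbia. ALDH6B2, a methylmalonate semialdehyde dehydrogenase, had 39.5 and 53.4 in fnr1 and wild type Ws, against 146 and 175 in fnr1 and wild type Columbia. The 7 other measured ALDH genes ran from -0.32 to 0.25 in log2 Ws minus Columbia difference.

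Further enzymes acted in cell wall, lipid and energy metabolism. CSLC04, a synthase of the xyloglucan backbone of cell walls, had 62.6 and 68.9 in fnr1 and wild type Ws, against 176 and 204 in fnr1 and wild type Columbia. AT3G06470, of the ELO family of fatty acid elongases, had 34.9 and 26.9 in fnr1 and wild type Ws, against 107 and 128 in fnr1 and wild type Columbia. AT2G33220, a subunit of mitochondrial complex I, had 45.3 and 36.4 in fnr1 and wild type Ws, against 217 and 203 in fnr1 and wild type Columbia. AT5G24210, a lipase family gene, had 104 and 71.9 in fnr1 and wild type Ws, against 358 and 227 in fnr1 and wild type Columbia. The folds of these 4 genes were 2.89, 3.81, 5.17 and 3.30, in the order named.

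Genes of protein turnover and folding formed a group of 7 with a median fold of 2.86. UBC28 and UBC18 encode ubiquitin-conjugating enzymes. UBC28 had 331 and 409 in fnr1 and wild type Ws, against 1315 and 836 in fnr1 and wild type Columbia. UBC18 had 30.2 and 36.5 in fnr1 and wild type Ws, against 116 and 82.7 in fnr1 and wild type Columbia. The folds were 2.85 for UBC28 and 2.95 for UBC18. DER2.1, related to yeast Der1 of the endoplasmic reticulum, had 37.1 and 35.8 in fnr1 and wild type Ws, against 107 and 101 in fnr1 and wild type Columbia, and DER2.2 had 49.8 and 60.8 in fnr1 and wild type Ws against 61.7 and 40.5 in fnr1 and wild type Columbia. AT4G02450, a co-chaperone of the p23 type, had 44.7 and 56.4 in fnr1 and wild type Ws, against 242 and 228 in fnr1 and wild type Columbia.

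AT1G23440, a pyroglutamyl peptidase family gene, was measured by a pair of probe sets that did not behave alike. The member probe set had 7.10 and 16.2 in fnr1 and wild type Ws, against 53.9 and 54.1 in fnr1 and wild type Columbia. The other had 57.5 and 90.0 in fnr1 and wild type Ws against 94.8 and 51.5 in fnr1 and wild type Columbia, and its groups overlapped. The fold of 5.04 for this gene thus rests on 1 of its 2 probe sets.

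Secreted and stress-related genes made up 8 members, with a median fold of 3.16 and a range of 2.56 to at least 14.3. AT1G23130, of the Bet v 1 family, had 412 and 481 in fnr1 and wild type Ws, against 1205 and 1080 in fnr1 and wild type Columbia. AT1G62510, of the lipid transfer protein family, had 163 and 116 in fnr1 and wild type Ws, against 456 and 414 in fnr1 and wild type Columbia. AT5G22580, a stress-responsive A/B barrel protein gene, had 273 and 199.7 in fnr1 and wild type Ws, against 740.1 and 719 in fnr1 and wild type Columbia. CLE41 encodes a peptide that keeps vascular stem cells dividing. It had 43.2 and 48.6 in fnr1 and wild type Ws, against 131 and 142 in fnr1 and wild type Columbia, while CLE44 had 27.9 and 22.1 in fnr1 and wild type Ws against 24.2 and 13.2 in fnr1 and wild type Columbia. CLE27 ran the other way, with 25.3 and 28.1 in fnr1 and wild type Ws against 8.26 and 10.8 in fnr1 and wild type Columbia. AT3G16530, a legume lectin gene, had 87.6 and 105 in fnr1 and wild type Ws, against 324 and 283 in fnr1 and wild type Columbia.

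AT3G28220, a TRAF-like gene, had 29.5 and 25.9 in fnr1 and wild type Ws, against 163 and 134 in fnr1 and wild type Columbia. In the group for transport and membrane trafficking, AT1G61740 of the TauE/SafE family had 140.3 and 106 in fnr1 and wild type Ws, against 556 and 414 in fnr1 and wild type Columbia. AT3G23080, with a lipid-binding START domain, had 74.7 and 101 in fnr1 and wild type Ws, against 329.7 and 378 in fnr1 and wild type Columbia. Members with no role given here included AT5G44580, with 128 and 61.6 in fnr1 and wild type Ws, against 567 and 624 in fnr1 and wild type Columbia, and AT1G67865, with 247 and 274 in fnr1 and wild type Ws, against 1478 and 1084 in fnr1 and wild type Columbia. The 2 Ws arrays of AT5G44580 were apart, with fnr1 Ws the higher one.

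**Figure D3:**
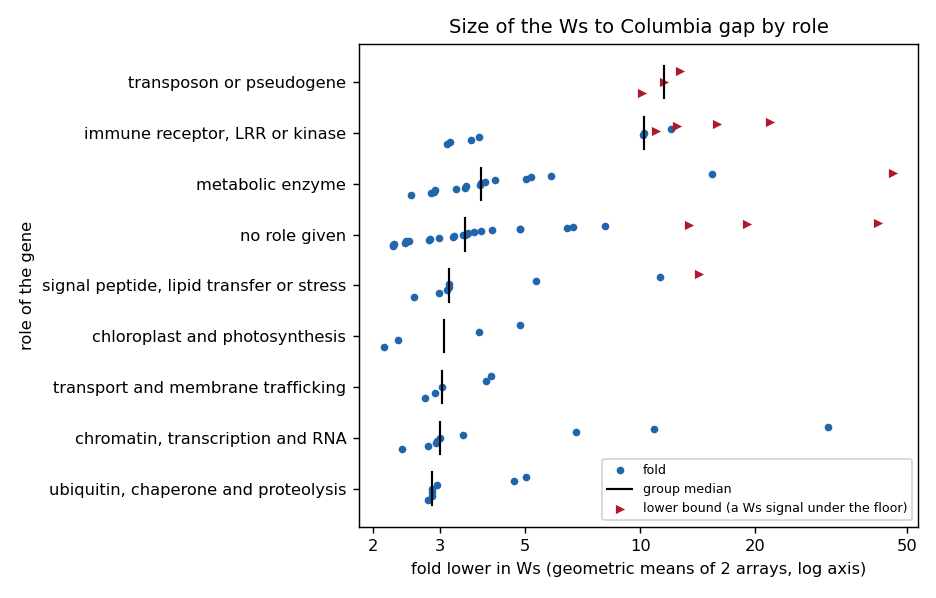
Fold by which the Ws signals lay under the Columbia signals (x axis, log scale) for the 90 members with 1 gene, by role of the gene. Points are genes, triangles are lower bounds where a Ws signal lay under the floor, and black bars are group medians. The 3 transposon loci all lie at 10.1 or more, and 7 of the 11 receptors, leucine-rich repeat proteins and kinases lie at 10.2 or more as well.

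Members without a single named gene included some with bright Columbia signals and wide gaps. Probe set 257008_at, not listed in the annotation, had 303 and 401 in fnr1 and wild type Ws, against 5405 and 5683 in fnr1 and wild type Columbia. Probe set 267126_s_at had 131 and 136 in fnr1 and wild type Ws, against 2078 and 2242 in fnr1 and wild type Columbia, and 249331_at had 206 and 229 in fnr1 and wild type Ws, against 2316 and 2527 in fnr1 and wild type Columbia. All 3 kept Ws signals far above the floor while lying 15.9, 16.2 and 11.2-fold under Columbia. Probe set 245651_s_at, annotated to 5 genes, had 1.68 and 5.73 in fnr1 and wild type Ws, against 562 and 453 in fnr1 and wild type Columbia and was at least 87.3-fold lower in Ws. Probe set 263111_s_at, annotated to 2 genes, had 6.40 and 9.06 in fnr1 and wild type Ws, against 257 and 257 in fnr1 and wild type Columbia. Probe set 252459_s_at, not listed, had 1.11 and 1.08 in fnr1 and wild type Ws, against 137 and 139.5 in fnr1 and wild type Columbia, which was at least 23.9-fold lower.

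Probe sets annotated to several genes made up 8.79% of the members, against 2.32% of the 7935 probe sets with both Columbia signals at 50 or more. Of the 7935, 184 were annotated to several genes, and 16 of these, or 8.70%, were members. The shares were 2.26% for probe sets with 1 gene and 2.02% for those not listed. By probe set name, 19 of 294 with the suffix _s_at were members, or 6.46%, against 163 of 7639 with the plain suffix, or 2.13%. These shares are a description of the probe sets chosen and were not tested.

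The 89 members placed in the gene table lay on all 5 nuclear chromosomes. Chromosome 2 held 8 of them, or 8.99%, where it held 14.6% of all placed nuclear probe sets with 1 gene and both Columbia signals at 50 or more. Chromosome 1 held 25, or 28.1% against 25.7%, and chromosome 3 held 21, or 23.6% against 21.0%. Chromosome 4 had 13 and chromosome 5 had 22, or 14.6% and 24.7%, against 14.6% and 24.2%. Member genes were at most 5 genes apart in 4 places, each a pair. These were AT4G19500 with AT4G19530, BGLU47 with DER2.1, AT5G16220 with AT5G16250, and AT5G43745 with APS4.

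Both genes measured between AT4G19500 and AT4G19530 were also lower in Ws, where their signals lay under the floor. AT4G19510 had 4.52 and 1.85 in fnr1 and wild type Ws, against 31.3 and 23.5 in fnr1 and wild type Columbia. AT4G19520 had 4.61 and 2.03 in fnr1 and wild type Ws, against 8.31 and 7.21 in fnr1 and wild type Columbia. Between BGLU47 and DER2.1 the gap was not shared by all genes. QQT2 had 47.4 and 39.0 in fnr1 and wild type Ws against 70.4 and 53.7 in fnr1 and wild type Columbia, and AT4G21780 was higher in Ws, with 24.7 and 10.3 in fnr1 and wild type Ws against 7.79 and 1.44 in fnr1 and wild type Columbia. The genes measured between the members of the remaining pairs overlapped between accessions. AT5G16230 had 1.58 and 13.1 in fnr1 and wild type Ws against 5.85 and 8.04 in fnr1 and wild type Columbia. AT5G16240 had 37.5 and 42.8 in fnr1 and wild type Ws against 49.8 and 24.3 in fnr1 and wild type Columbia. AT5G43770 had 9.05 and 4.09 in fnr1 and wild type Ws against 8.35 and 5.43 in fnr1 and wild type Columbia. The measured genes flanking the remaining pairs were lower in Ws without overlap. AT5G16210 had 51.5 and 58.9 in fnr1 and wild type Ws against 70.8 and 67.3 in fnr1 and wild type Columbia. AT5G43740 had 6.65 and 2.57 in fnr1 and wild type Ws against 19.97 and 25.3 in fnr1 and wild type Columbia. AT5G43790 had 13.5 and 15.6 in fnr1 and wild type Ws against 23.6 and 21.02 in fnr1 and wild type Columbia. The lower Ws signal of AT5G43740 lay under the floor. These gaps were not tested.

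Genes near the members were set against genes farther away. Distance was taken to the 89 placed members only, so neighbours of the other members can count as farther away. Of probe sets with 1 gene that had both Columbia signals at 50 or more and did not meet the criteria, 84 lay within 5 genes of a member. Their median log2 Ws minus Columbia difference was -0.10, against 0.03 for 3739 probe sets farther away. At least 1.5-fold lower in Ws in both genotypes were 8 of the 84, or 9.52%, against 127 of the 3739, or 3.40%. These are counts over genes of the same 4 arrays and were not tested.

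The difference between fnr1 and wild type was not used by the criteria and could be tested. The test was limma's moderated test over both accessions, in which the accessions serve as the replicates of the genotype. The filter was on the mean signal of the 4 arrays, and all 182 members passed it. The 17 with a Ws signal under the floor passed through Columbia alone. So did further members with dim Ws signals above the floor, since the filter lay higher than the floor. Examples are AT1G73490, with 9.82 and 9.02 in fnr1 and wild type Ws, and AT5G42250, with 9.57 and 6.83. Limma called 1 of the 182 members, or 0.549%, at an adjusted p under 0.05, against 25 of all 13648 tested probe sets, or 0.183%. Of all tested probe sets 0.161% were called higher and 0.022% lower in fnr1. The called member fell in fnr1. It was 251109_at, a probe set not listed in the annotation, with 409 and 821 in fnr1 and wild type Ws, against 1691 and 3261 in fnr1 and wild type Columbia. Within each accession the fnr1 array was the lower one. Its log2 difference was -0.97 ± 0.14 (SE, 2 arrays against 2, limma adjusted p = 0.00315), with -0.99 in Ws and -0.94 in Columbia. That call ended on the deposited scale (limma adjusted p = 0.88), without the variance trend (0.27) and with no filter (0.547). It also ended without the accession term. There the Ws to Columbia gap that chose the members enters the error, so this loss was set by their choice. Leaving out an array removes the term too, so those fits could not check the call either. The call was kept under quantile normalization (limma adjusted p = 0.00288) and with a pseudocount of 16 (0.0036).

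At an unadjusted p under 0.05 there were 15 members, or 8.24%, against 6.67% of all tested probe sets, 11 higher and 4 lower in fnr1. Of the 165 members with both Ws signals above the floor, 14 had such a p, or 8.48%. Some of the 165 also passed the filter through Columbia alone, so this subset does not remove that dependence. The median log2 difference between fnr1 and wild type was 0.02 over the members and -0.03 over all tested probe sets. The members spanned -0.97 to 0.73. The next lowest adjusted p was 0.158, for 255852_at, with 179 and 115 in fnr1 and wild type Ws, against 849 and 525 in fnr1 and wild type Columbia, where the fnr1 array was the higher one in each accession.

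Among members with 1 gene no genotype difference was called. Genes are named here by the smaller of their 2 within-accession differences, among those with the same sign in both accessions and all signals above the floor. AT5G24210 was the highest, at 0.57 ± 0.16 (SE, limma adjusted p = 0.363), with 0.50 in Ws and 0.65 in Columbia. AT3G04210 (0.48, limma adjusted p = 0.611), AT1G61740 (0.41, 0.64), AT5G42250 (0.33, 0.83) and AT1G16560 (0.20, 0.888) followed. The lowest 5, starting from the lowest, were ALDH6B2 (-0.32, limma adjusted p = 0.815), AT1G34220 (-0.26, 0.845), AT3G23080 (-0.30, 0.808), BGLU47 (-0.33, 0.843) and AT5G28500 (-0.21, 0.857). Differences in parentheses are those over both accessions.

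**Figure D4:**
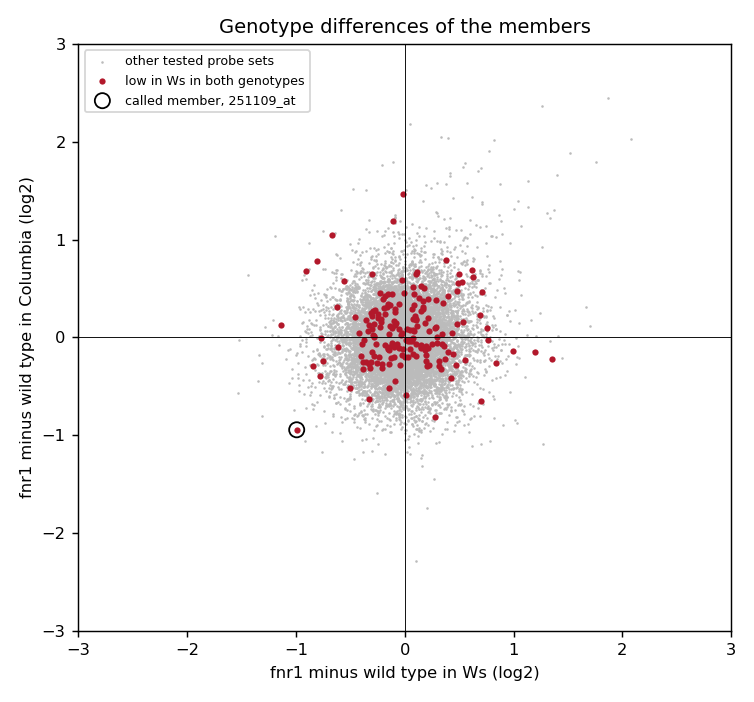
Log2 difference between fnr1 and wild type in Ws (x axis) and in Columbia (y axis) for the 182 members (red) and the other tested probe sets (grey). Log2 values are of median-scaled signal plus 5.78, and 5 tested probe sets lie outside the plotted range of -3 to 3. The members lie around 0 on both axes, and the circled point is 251109_at at -0.99 and -0.94.

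Within 1 accession the genotype differences had no replicates and were not tested. Folds here are of signal plus 5.78, which understates differences between dim signals. In Ws, 11 members (6.04%) were at least 1.5-fold higher and 11 at least 1.5-fold lower in fnr1, where 2.48% and 3.22% of all tested probe sets were. In Columbia, 12 (6.59%) were at least 1.5-fold higher and 5 (2.75%) lower, where 4.25% and 3.99% were. Among the 165 members with both Ws signals above the floor, 6 were higher and 5 lower past 1.5-fold in Ws, and 9 higher and 4 lower in Columbia. The larger shares of members in Ws thus came largely from members with a Ws signal under the floor. At least 2-fold apart in Ws on this scale were 259629_at and 263913_at, higher in fnr1, and CSA1, lower in fnr1, where 0.315% and 0.161% of all tested probe sets were. Of these, 259629_at and CSA1 had a Ws signal under the floor. In Columbia AT2G32160, AT1G35710 and 263776_s_at were at least 2-fold higher in fnr1 (0.799% of all), and 0 members were 2-fold lower (0.242% of all). Past 1.5-fold in both accessions were 255852_at and 256091_at, higher in fnr1 (0.498% of all), and 251109_at, lower in fnr1 (0.227% of all).

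The genotype difference in Ws was also set against that in Columbia, without a test. By the difference of the 2 log2 genotype differences, Ws minus Columbia, the highest members with 1 gene and all signals above the floor were AT5G44580 (1.13), AT5G55790 (1.10), AT5G11580 (0.84), AT5G42090 (0.76) and AT2G21080 (0.62). The lowest were AT1G35710 (-1.30), UBC28 (-0.95), AT1G23440 (-0.76), UBC18 (-0.68) and AT1G62850 (-0.60). UBC28, for example, was lower on the fnr1 array in Ws by 0.30 and higher in Columbia by 0.65 on the log2 scale.

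Members close to the criteria show how sharp their edges were. Just inside the 2-fold limit were 253174_at, LHCB4.2 and 252291_s_at, with ratios of the lower Columbia to the higher Ws signal of 2.002, 2.002 and 2.004. Just outside were AT3G50520, whose ratio missed 2 narrowly, 249123_at with 1.99 and HTB2 with 1.99. At the limit of 50, AT5G55790 had a lower Columbia signal of 50.5 and AT4G13100 had 50.8, while AT4G16880 with 49.7 and 250859_at with 49.7 were left out.

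Lists of other genes gave little context, because 12 of 100 entries had a listed probe set and 6 of the 10 lists had none. Those 6 included the markers of leaf, root, flower and seed, so the tissue label could not be checked with them. Of 3 genes of aliphatic glucosinolate synthesis with a listed probe set, none was a member. AOP3 was too dim to be one and was not tested. It had 1.51 and 6.39 in fnr1 and wild type Ws, against 0.64 and 6.92 in fnr1 and wild type Columbia. BCAT4 had 1279 and 1263 in fnr1 and wild type Ws, against 1243 and 1121 in fnr1 and wild type Columbia. AT2G25450 had 811 and 820 in fnr1 and wild type Ws, against 1121 and 949 in fnr1 and wild type Columbia. Of the 12 genes with a probe set 7 were tested between fnr1 and wild type, and limma called none of these 7 (lowest adjusted p = 0.92).

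The arrays differed in brightness as deposited. Median signals were 27.5 in fnr1 Ws and 28.9 in wild type Ws, against 27.7 in fnr1 Columbia and 22.1 in wild type Columbia, so the wild type Columbia array was scaled up by a factor of 1.201. Without scaling, 127 probe sets met the criteria, of which 126 were among the 182. With quantile normalization 181 did, of which 178 were among them.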

How the data were processed

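RNA of above-ground tissue from 4 kinds of plant was measured on 4 Affymetrix ATH1 arrays, 1 per genotype and accession. The deposited values are linear signal intensities, 1 per probe set, and the submitters' processing notes name MAS5 as the authors' tool. Not given in the sources used here are its version, scaling target and detection calls. The values carry no depth, and the number of arrays limits precision.

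The 64 control probe sets were left out and each array was scaled to the common median of 26.5. Signals under 5.78, the 25th percentile, were set to that floor for folds and Ws to Columbia differences, and the same value was added before log2 for genotype differences. Members were found by the criteria given above, and no test was made on the difference that chose them. The genotype contrast was fitted on all 13648 probe sets that passed a filter on low mean signal (above the 40th percentile) with limma 3.58.1 in R 4.3.3. The terms were genotype and accession, with a variance trend, 1 residual degree of freedom and a prior of 15.7. P-values were adjusted by Benjamini-Hochberg. Accessions stand in for replicates, so a probe set's own spread comes from 2 accession pairs. With 1 residual degree of freedom against a prior of 15.7, most of the variance behind each SE and p-value came from the trend over all tested probe sets. On simulated data with 200 changed probe sets among 13648, the fit recovered 95% of log2 changes of 1 with 5 false calls. The simulated noise had the same SD of 0.221 for every probe set. This recovery therefore does not carry over to the real arrays, where the noise was not set to be equal.

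The probe annotation lists 1 gene for 13513 probe sets and several for 503. Of the 13513, 13436 matched the gene table, which was used for names, chromosomes and gene order only. Genes named by rule were the 14 with the highest ratio and the 12 with the highest Columbia signal. Further ones were the highest and lowest 5 in each genotype ranking, close neighbours, members nearest the limits, list members and genes with a further probe set. Other genes were named after their values were seen. The members and lists were chosen with earlier results of these data known. Planned classes by key word matched 3 members, since the gene table holds no descriptions, so roles were assigned from general knowledge after the members were seen. Alternatives changed the scaling, the limits of the criteria, the pseudocount, the filter and the model, and left out each array in turn.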

Additional observations from a re-analysis of the deposited data

How the results depend on the processing

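The number of members depended mainly on the limits. It was 109 with a Columbia minimum of 100 and 244 with one of 25, 83 with a gap of more than 3-fold and 54 with one of more than 4-fold. As deposited, without scaling, it was 127, and scaling by trimmed mean (179), by quantiles (181) or to the highest (190) or lowest (160) array median left it within 1.5 times of 182. Over all probe sets limma made 25 genotype calls in the main fit. With a pseudocount of 16 it made 25, on the deposited scale 27 and with quantile normalization 33. It made 0 with no filter (1182 at an unadjusted p under 0.05), 6 without the variance trend (857) and 0 without the accession term (210). Among the members the 1 call became 0 on the deposited scale, with no filter and without the trend (12, 14 and 17 at an unadjusted limma p under 0.05). It also became 0 without the accession term (0 at an unadjusted limma p under 0.05). In that fit the accession difference that chose the members enters the error, so this loss was set by their choice. Leaving out an array also removes the accession term, so the accession difference that chose the members enters the genotype value. Log2 fnr1 minus wild type values then ran from -1.98 to 0.047 for 251109_at, from -0.29 to 1.44 for AT5G24210, from -0.30 to 1.25 for AT3G04210, from -0.56 to 1.38 for AT1G61740, from -1.31 to 1.97 for AT5G42250 and from -0.39 to 0.80 for AT1G16560. They ran from -1.19 to 0.56 for ALDH6B2, from -0.996 to 0.47 for AT1G34220, from -1.33 to 0.73 for AT3G23080, from -1.39 to 0.72 for BGLU47 and from -1.17 to 0.75 for AT5G28500. The accession term already pairs fnr1 and wild type within each accession. No further pairing was possible with 1 array per genotype and accession. The floor used for folds was not varied. Limits: the mutation, the accession and the single plant sample of each array cannot be separated from array effects, and dim Ws signals carry the least precise folds.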
